A study of Mus musculus with 8 samples.

Results

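The genes described here build iron-sulphur clusters in mitochondria, and they were followed in LSK cells of mice with a conditional Msi2 KO. They are Nfs1, Iscu, Glrx5, Isca1, Isca2, Nfu1, Bola3 and Slc25a37, 8 of the 10720 genes measured. Of the 14 probe sets annotated to one of them alone, 2 were listed at 0 on all arrays (1 of Bola3 and 1 of Nfs1) and 12 carried signal, of 24404 probe sets that did so on the whole array. Another probe set naming Slc25a37 together with a second gene was left out. The members were chosen by role around Bola3, which was selected on its difference between Msi2 KO and control in these arrays. The differences of these genes are therefore given as a description, and no test of them is read as evidence.

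RNA came from bone marrow LSK cells, meaning lineage-negative, Sca-1-positive and Kit-positive. Blood stem cells and the first multipotent progenitors lie in this fraction. 4 arrays came from mice with a conditional Msi2 KO (genotype given as Msi2KO) and 4 from control mice (genotype WT), with 1 biotin-labelled RNA sample on each Affymetrix mouse array. The product of Msi2, Musashi-2, binds RNA. The Cre line that drives the deletion, the age and sex of the mice and the strain are not given in the sources used here. Nor do the labels state in so many words that each array is a separate animal, although the design text speaks of 4 mice in each group.

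An iron-sulphur cluster is a cofactor of iron and sulphide ions that carries electrons or holds substrates in many enzymes. In mitochondria, NFS1 takes sulphur from cysteine, the cluster forms on the scaffold ISCU, and GLRX5 hands it on. ISCA1 and ISCA2 help to make the larger clusters, and NFU1 and BOLA3 deliver these to client enzymes such as lipoic acid synthase and the respiratory chain. SLC25A37, also called mitoferrin 1, brings iron into the mitochondria of developing red cells, which need it for heme as well.

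Across the arrays, Bola3 on 1433970_at and Isca1 on both its probe sets had higher signal on all 4 Msi2 KO arrays than on any control array. A second Bola3 probe set overlapped between the groups, and Iscu, Isca2 and Nfu1 had differences between -0.30 and 0.08. Of the 12 probe sets, 9 had a higher mean in Msi2 KO and 3 a lower one, with a median log2 difference of 0.36, against 0.001 over all probe sets. The KO arrays lay above all controls for 3 of the 12 probe sets, beside 3.12% of all probe sets, and 2 of these 3 belong to Isca1. They lay below all controls for 0 of the 12 (2.96% of all probe sets). In limma, 0 of the 12 had an adjusted p under 0.05, as did 0 of all probe sets (0%), and 4 had an unadjusted p under 0.05, beside 9.72% of all. Since this contrast chose the genes, nothing is read from these counts.

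The deleted gene and markers of the cell types in the samples were read first. Msi2 signal on its brightest probe set, 1421230_a_at, was 88.9%, 79.2%, 14.3% and 45.0% of its mean in controls on KO arrays 1 to 4. Over all 5 Msi2 probe sets it was 57.3% to 88.9% on Msi2 KO 1, 55.5% to 79.2% on Msi2 KO 2, 13.4% to 38.8% on Msi2 KO 3 and 38.2% to 48.1% on Msi2 KO 4. Msi2 KO 3 stood apart on the first principal component (69.4, others -39.4 to 17.0, 28.6% of the variance) and had the lowest array weight (0.538, others 0.626 to 1.97). Of the erythroid markers, 16 of 20 were measured and all 16 had a higher mean in KO, with a median difference of 1.31. Without Msi2 KO 3, 15 were higher and the median was 0.90. The groups were apart with KO above for 2 of the 16, Zfpm1 and Blvrb (3.63% of all genes), and Nfe2 differed by only 0.06. Their summed linear signal ran from 9360 to 24100 on KO arrays and from 5380 to 10500 on control arrays. The erythroid marker mean was 7.57, 7.95, 9.09 and 8.20 (log2) on Msi2 KO 1 to 4 and 6.69, 7.64, 7.42 and 6.86 on control 1 to 4. Gata1, the main erythroid transcription factor, was 1.37 higher (95% interval 0.53 to 2.22), while the globin gene Hba-a1 was listed at 0. The LSK markers had 7 of 8 measured, with a summed signal of 1850 to 4870 in KO (1850 on Msi2 KO 3, where their log2 mean was 7.26) and 4510 to 4950 in controls. Of these 7, 1 was higher and 6 lower in KO, with a median difference of -0.62, or -0.03 without Msi2 KO 3. Procr differed by -0.80 (-0.20 without Msi2 KO 3) and Mecom by -0.63 (-0.07). Kit, the 1 higher gene, averaged 9.04 ± 0.16 in KO and 8.70 ± 0.33 in controls (SD, n = 4 each), and the lymphoid markers Cd3e, Ms4a1, Cd79a and Il7r were listed at 0. Mast cell and basophil markers (6 of 7 measured) summed to 1920 to 2570 in KO and 1400 to 2310 in controls, and macrophage markers (7 of 8, with C1qa at 0) to 1470 to 2410 in KO and 1780 to 2530 in controls. Such sums are carried by the brightest genes. Gene by gene, 5 of the 6 mast cell and basophil markers were higher in KO, with a median difference of 1.06 and Fcer1a and Cpa3 above all controls (3.63% of all genes). Of the 7 macrophage markers 6 were higher, with a median of 0.605, Cd68 above all controls and Lyz2 below them (3.48% of all genes). The part that these cell types play in the values of the assembly genes was not tested. In samples of many cells, fewer cells of a type and less RNA per cell cannot be told apart. Xist, expressed from the inactive X chromosome, was low on Msi2 KO 1, Msi2 KO 2 and control 1 (4.80 to 5.55) and high elsewhere (11.92 to 12.51), so values in the high-Xist arrays alone (Msi2 KO 3 and 4 against control 2, 3 and 4) are given for several genes and lists.

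Promoter sequences of the members are shown first, for Bola3 and Isca1, the genes with the groups apart on a probe set, and for Glrx5 and Nfs1, which varied like them on some probe sets. Glrx5 had an r of 0.73 with Bola3 1433970_at, 0.79 with Isca1 1423652_at and 0.56 with Isca1 1423651_at, and Nfs1 1416373_at one of 0.74, 0.71 and 0.81 with the same probe sets. Each window runs from 250 bases before to 50 bases after a transcription start in RefSeq (GRCm38.p6), and 6 of the 8 genes had a window in the table used. Capitals mark matches, on either strand, to CCAAT (the CCAAT box) or CCGGAA (a core bound by ETS factors). For Bola3, which has 3 listed starts, the most upstream and the most downstream windows are given.
Bola3, upstream start, chr6:83348897-83349196, + strand: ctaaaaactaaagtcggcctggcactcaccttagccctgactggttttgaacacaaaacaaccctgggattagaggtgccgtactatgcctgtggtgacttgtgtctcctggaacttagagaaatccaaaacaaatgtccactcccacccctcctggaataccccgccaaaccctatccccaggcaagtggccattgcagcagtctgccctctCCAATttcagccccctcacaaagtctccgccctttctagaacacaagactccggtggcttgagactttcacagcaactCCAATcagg
Bola3, downstream start, chr6:83349226-83349525, + strand: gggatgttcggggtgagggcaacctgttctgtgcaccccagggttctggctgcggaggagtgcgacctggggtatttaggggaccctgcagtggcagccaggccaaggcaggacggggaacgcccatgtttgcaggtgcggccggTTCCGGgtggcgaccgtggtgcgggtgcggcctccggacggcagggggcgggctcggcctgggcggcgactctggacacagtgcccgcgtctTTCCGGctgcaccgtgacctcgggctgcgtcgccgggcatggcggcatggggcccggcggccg
Isca1, chr13:59769740-59770039, - strand: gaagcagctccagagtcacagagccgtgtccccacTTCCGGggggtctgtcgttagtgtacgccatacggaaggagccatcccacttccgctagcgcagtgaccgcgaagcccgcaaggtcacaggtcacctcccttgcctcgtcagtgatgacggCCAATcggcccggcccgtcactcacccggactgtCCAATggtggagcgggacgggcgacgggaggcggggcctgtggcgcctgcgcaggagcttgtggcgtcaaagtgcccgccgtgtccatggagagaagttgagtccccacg
Glrx5, chr12:105032368-105032667, + strand: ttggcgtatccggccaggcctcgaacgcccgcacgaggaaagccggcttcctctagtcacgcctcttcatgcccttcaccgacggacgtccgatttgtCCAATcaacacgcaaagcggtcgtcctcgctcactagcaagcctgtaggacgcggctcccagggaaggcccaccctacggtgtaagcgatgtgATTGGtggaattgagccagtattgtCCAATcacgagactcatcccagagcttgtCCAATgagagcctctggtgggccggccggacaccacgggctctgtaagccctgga
Nfs1, chr2:156144137-156144436, - strand: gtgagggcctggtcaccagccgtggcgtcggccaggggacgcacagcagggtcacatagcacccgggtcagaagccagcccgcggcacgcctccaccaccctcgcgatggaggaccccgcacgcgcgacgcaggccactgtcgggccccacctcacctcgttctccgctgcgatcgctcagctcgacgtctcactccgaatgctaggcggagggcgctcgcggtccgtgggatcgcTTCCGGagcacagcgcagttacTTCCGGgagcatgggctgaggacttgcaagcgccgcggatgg

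Glrx5 held 4 CCAAT matches, Isca1 held 2, and the upstream Bola3 window held 2, while 37.4% of the 32851 promoter windows held at least 1. CCGGAA occurred in 14.9% of all windows, once in Isca1 and 2 times each in the downstream Bola3 window and in Nfs1, but not in the Glrx5 window. The GATA motifs AGATAA and TGATAA (11.2% and 9.05% of windows), the E-box CACGTG (7.15%) and the NRF1 core GCATGCG (3.58%) had no match in these 5 windows. Of the other members, Isca2 held 2 matches to AGATAA, 2 to CCAAT and 1 to CCGGAA, and Nfu1 held 1 to CCAAT. Each search covered both strands and no 2 matches overlapped in the windows shown. GC content was 51.7% and 72.3% in the upstream and downstream Bola3 windows, 65.7% in Isca1, 60.0% in Glrx5 and 69.7% in Nfs1, beside a median of 52.7%. A match is a string of letters and shows no binding.

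**Figure D1:**
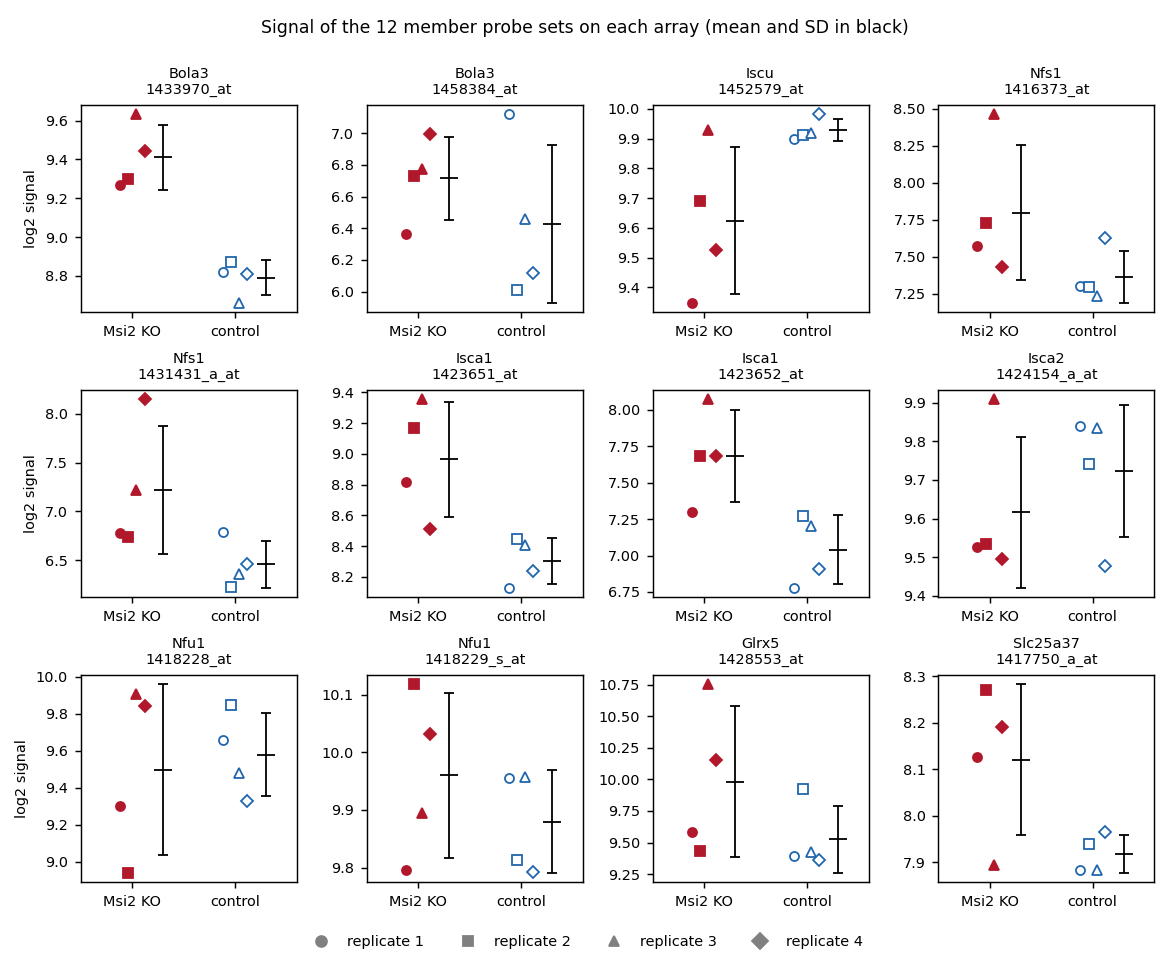
Log2 signal (y axis, own scale in each panel) of the 12 probe sets on the 4 Msi2 KO arrays (filled) and the 4 control arrays (open). Marker shape gives the replicate number and black bars the mean and SD. The groups are apart for Bola3 1433970_at and for both Isca1 probe sets, and overlap in the other 9.

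Sulphur enters the pathway through Nfs1, the cysteine desulphurase, which was read by 2 probe sets. On 1416373_at it stood at 7.57, 7.73, 8.46 and 7.43 on Msi2 KO 1 to 4, against 7.30, 7.30, 7.23 and 7.63 on control 1 to 4. Msi2 KO 3 was the highest array and the groups overlapped, because control 4 lay above Msi2 KO 1 and Msi2 KO 4. The log2 difference was 0.43 (95% interval -0.08 to 0.94, 1.35-fold), and 0.21 without Msi2 KO 3. On 1431431_a_at the values were 6.78, 6.74, 7.22 and 8.15 in KO and 6.79, 6.22, 6.36 and 6.47 in controls. Here Msi2 KO 4 was the highest array, and control 1 lay above Msi2 KO 1 and Msi2 KO 2. The difference was 0.76 (95% interval 0.08 to 1.44, 1.70-fold), 0.45 without Msi2 KO 4, 1.34 in the high-Xist arrays and -0.03 in the low-Xist arrays, which hold 2 KO arrays and 1 control array. The 2 probe sets varied little alike (Pearson r 0.28 over the 8 arrays, -0.19 after removing group means), so the size of the Nfs1 difference depends on the probe set.

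Iscu, the scaffold on which the cluster is first assembled, was the member with the lowest difference. It stood at 9.35, 9.69, 9.93 and 9.53 on Msi2 KO 1 to 4, against 9.90, 9.91, 9.92 and 9.98 on control 1 to 4. Msi2 KO 1, 2 and 4 lay below every control, and Msi2 KO 3 lay within the control range. The controls were close together, at 9.93 ± 0.04, while KO arrays averaged 9.62 ± 0.25 (SD, n = 4 each). The log2 difference was -0.30 (95% interval -0.64 to 0.03, 0.810-fold). Without Msi2 KO 3 it was -0.41 (95% interval -0.71 to -0.10) and the groups no longer overlapped, beside 4.81% of all probe sets with KO below control in that setting. Msi2 KO 3, the KO array with Iscu at control level, had the least Msi2 signal, the highest erythroid marker mean and the lowest array weight. With the erythroid marker mean, Iscu had an r of -0.18 on 8 arrays and -0.60 without Msi2 KO 3. What sets Iscu apart on that array was not tested.

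Glrx5, the glutaredoxin that passes the new cluster on, read 9.59, 9.43, 10.75 and 10.16 on Msi2 KO 1 to 4. The controls read 9.39, 9.92, 9.43 and 9.36. Msi2 KO 3 and Msi2 KO 4 lay above all controls and the other KO arrays lay among them. The log2 difference of 0.46 (95% interval -0.19 to 1.10, 1.37-fold) was 0.20 without Msi2 KO 3 and 0.64 without control 2. In the high-Xist arrays it was 0.88 (95% interval 0.23 to 1.54), and in the low-Xist arrays 0.12. In zebrafish, loss of glrx5 impairs heme synthesis. Here Glrx5 followed the mean of the erythroid markers over the arrays, with r 0.88 on 8 arrays and 0.69 without Msi2 KO 3, as a description of values that share their arrays.

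Isca1, which acts in the making of the larger clusters, was higher on every KO array on both its probe sets. On 1423651_at it stood at 8.82, 9.17, 9.35 and 8.52 on Msi2 KO 1 to 4, against 8.13, 8.45, 8.41 and 8.24 on control 1 to 4. The lowest KO array, Msi2 KO 4, cleared the highest control by 0.065. The mean was 8.96 ± 0.37 in KO and 8.31 ± 0.15 in controls (SD, n = 4 each), a log2 difference of 0.66 (95% interval 0.22 to 1.10, 1.58-fold). On 1423652_at the values were 7.30, 7.68, 8.07 and 7.68 in KO, against 6.78, 7.27, 7.20 and 6.91 in controls. Here Msi2 KO 1 was the lowest KO array, above control 2 by only 0.023. The difference was 0.64 (95% interval 0.21 to 1.08, 1.56-fold). Both probe sets are annotated to the same transcript accession, so they do not read the gene independently, and their r over the arrays was 0.88. Without Msi2 KO 3 the differences were 0.53 and 0.51, and in the high-Xist arrays 0.57 (95% interval -0.095 to 1.23) and 0.75 (95% interval 0.25 to 1.25). With the erythroid marker mean, the second probe set had an r of 0.98 on 8 arrays and 0.98 without Msi2 KO 3. The first had 0.84 and 0.69. Isca1 and the marker mean were both higher in KO. These r were taken with the group difference left in and are only a description.

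Isca2, the partner of ISCA1 in the same step, showed no such difference. It read 9.53, 9.53, 9.91 and 9.50 on Msi2 KO 1 to 4, and 9.84, 9.74, 9.84 and 9.48 on control 1 to 4. Msi2 KO 3 was the highest of all arrays and control 4 the lowest, and the groups overlapped. The log2 difference was -0.11 (95% interval -0.45 to 0.23, 0.928-fold), an interval that holds differences of either sign. It was -0.21 without Msi2 KO 3 and 0.02 in the high-Xist arrays.

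Bola3, which works with NFU1 in delivering clusters for lipoic acid synthesis, had the widest gap between the groups. On 1433970_at it stood at 9.27, 9.30, 9.63 and 9.44 on Msi2 KO 1 to 4, against 8.82, 8.87, 8.66 and 8.81 on control 1 to 4. The lowest KO array lay 0.395 above the highest control. KO arrays averaged 9.41 ± 0.17 and controls 8.79 ± 0.09 (SD, n = 4 each), a log2 difference of 0.62 (95% interval 0.32 to 0.92, 1.54-fold). Without any 1 array it lay between 0.55 and 0.67, and it was 0.76 in the high-Xist arrays and 0.46 in the low-Xist arrays. The order of the KO arrays from low to high Bola3 (1, 2, 4, 3) was that of the erythroid marker mean from low to high. It was also that of Msi2 from high to low on 1421230_a_at, although Msi2 1435520_at put Msi2 KO 2 above Msi2 KO 1. Among the controls, control 3 was lowest for Bola3 but control 1 for the marker mean. Bola3 1433970_at had an r of 0.85 with that mean on 8 arrays and 0.75 without Msi2 KO 3. Bola3 was selected on its difference between the groups, and the marker mean was also higher in KO. Both r were taken with that difference left in, so they are high in part by construction and only a description. Whether Bola3 depends on either was not tested. A second Bola3 probe set, 1458384_at, read 6.37, 6.73, 6.77 and 6.998 in KO and 7.12, 6.01, 6.46 and 6.12 in controls. Control 1 was its highest array, and its difference of 0.29 (95% interval -0.28 to 0.86) was 0.69 (95% interval 0.20 to 1.17) in the high-Xist arrays and -0.57 in the low-Xist arrays. When 1 array was left out, it ranged from 0.15 without control 2 to 0.52 without control 1. The 2 Bola3 probe sets had an r of 0.41. With the erythroid marker mean, 1458384_at had an r of 0.21 on 8 arrays and 0.09 without Msi2 KO 3.

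Nfu1, the carrier that hands clusters to lipoic acid synthase, differed little on either probe set. On 1418228_at the values were 9.30, 8.94, 9.91 and 9.84 on Msi2 KO 1 to 4, and 9.66, 9.85, 9.48 and 9.33 on control 1 to 4. Msi2 KO 1 and Msi2 KO 2 lay below all controls and Msi2 KO 3 above them. The difference of -0.08 (95% interval -0.61 to 0.45) became 0.11 without Msi2 KO 2, 0.01 without control 2, 0.02 when Xist was a covariate, and 0.32 among high-Xist arrays. On 1418229_s_at they were 9.79, 10.12, 9.90 and 10.03 in KO and 9.96, 9.81, 9.96 and 9.79 in controls. This difference was 0.08 (95% interval -0.21 to 0.37), and the 2 probe sets had an r of -0.24.

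Slc25a37, the iron importer of red cell precursors, read 8.13, 8.27, 7.89 and 8.19 on Msi2 KO 1 to 4. The controls were close together at 7.88, 7.94, 7.88 and 7.96. Msi2 KO 1, 2 and 4 lay above every control, and Msi2 KO 3 lay within the control range. The log2 difference was 0.20 (95% interval -0.09 to 0.49, 1.15-fold). Without Msi2 KO 3 it was 0.28 (95% interval 0.001 to 0.55) and the groups were apart, beside 4.65% of all probe sets with KO above control in that setting, and in the high-Xist arrays it was 0.11. The KO array with the highest erythroid marker mean was the one with the lowest Slc25a37. Its r with that mean was 0.225 on 8 arrays and 0.76 without Msi2 KO 3. The related importer Slc25a28 of other tissues differed by -0.07 (95% interval -0.63 to 0.49).

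**Figure D2:**
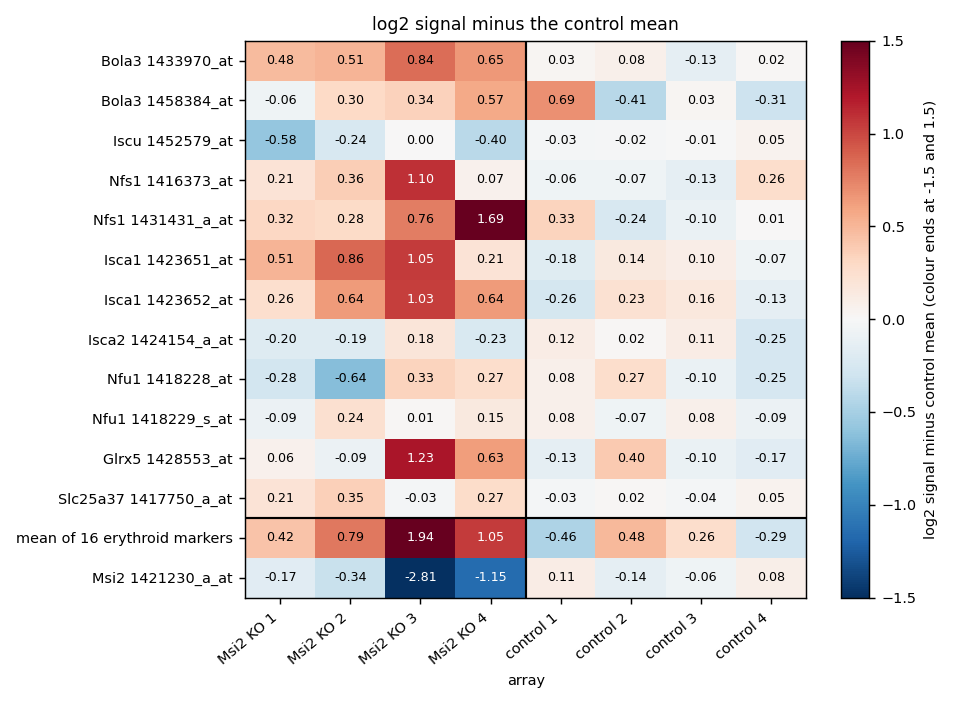
Log2 signal minus the control mean (colour and printed number) for the 12 probe sets, the mean of 16 erythroid markers and Msi2 (rows) on the 4 Msi2 KO and 4 control arrays (columns). On Msi2 KO 3 the erythroid mean and the first Bola3, Nfs1, both Isca1 and Glrx5 probe sets are high, while Iscu and Slc25a37 sit at control level.

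The members varied in different ways over the arrays. With the erythroid marker mean, Nfs1 1416373_at had an r of 0.73 on 8 arrays and 0.20 without Msi2 KO 3. For Nfs1 1431431_a_at these r were 0.52 and 0.525, and for Isca2 0.18 and -0.41. For Nfu1 they were 0.335 and 0.006 on 1418228_at, and 0.24 and 0.46 on 1418229_s_at. Over the 8 arrays the highest correlations between different members were those of Bola3 1433970_at with Isca1 (0.87 for 1423652_at and 0.81 for 1423651_at) and of Nfs1 1416373_at with Isca1 1423651_at (0.81). Isca1 1423652_at and Glrx5 had an r of 0.79, and Bola3 1433970_at and Glrx5 0.73, or 0.89 after removing group means. At the other end, Slc25a37 ran against Isca2 (-0.78) and Iscu (-0.75). These values describe 8 arrays, of which Msi2 KO 3 held the highest value for 7 of the 12 probe sets. Leaving it out, 9 probe sets had a higher mean in KO, the median difference was 0.24, and the groups were apart with KO above for 4 probe sets (4.65% of all) and with KO below for 1 (4.81% of all).

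**Figure D3:**
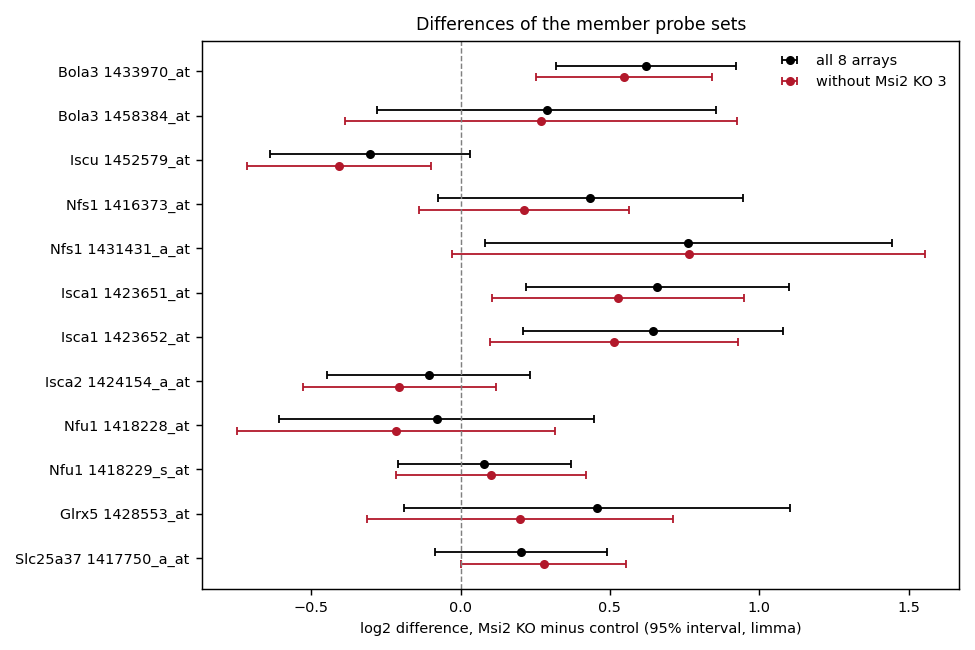
Log2 difference, Msi2 KO minus control, with its 95% interval for each of the 12 probe sets (rows), over all 8 arrays (black) and without Msi2 KO 3 (red). Bola3 1433970_at and both Isca1 probe sets keep intervals above 0 in both, Nfs1 1416373_at and Glrx5 move toward 0, and Iscu moves to -0.41.

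The genes whose signal over the 8 arrays was most like that of Bola3, among 10719 others, were Pdcd2 (r 0.98, Spearman rho 0.98), Atp5g1 (0.97 and 0.95) and Gtpbp3 (0.97 and 0.93). Without Msi2 KO 3 and control 3, the arrays farthest from the median of Bola3, these r were 0.98, 0.98 and 0.97. Atp5g1 encodes part of ATP synthase and Gtpbp3 a mitochondrial tRNA-modifying enzyme. Atp5g1 averaged 10.57 in KO and 9.82 in controls, a log2 difference of 0.75. For Slc25a37 the nearest were Pip5k1c (r 0.95, rho 0.79), B3galt5 (0.95 and 0.83) and the lysosomal protease gene Ctsb (0.93 and 0.93). Without Msi2 KO 2 and Msi2 KO 4 these r were 0.78, 0.81 and 0.89, and B3galt5 was dim in both groups (3.56 in KO and 3.43 in controls). In all, 59 genes had an r over 0.9 with Bola3 and 12 with Slc25a37. Bola3 was selected on its difference between the groups, and these r were taken with that difference left in. Genes with a like difference therefore rank high for Bola3 by construction, and the ranks and counts are only a description.

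Other genes of the pathway were taken from lists of textbook roles, and each gene was read by its brightest probe set. In limma across all 10720 genes, 0 genes had an adjusted p under 0.05 (0%) and 1222 had an unadjusted p under 0.05 (11.4%). No gene of these lists therefore passed the test in either direction, and the lists are described by counts and medians. The median difference over all genes was 0.002. KO arrays lay above all controls for 3.63% of genes and below for 3.48%.

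Of the other mitochondrial assembly genes, 9 of 13 were measured, 6 higher and 3 lower in KO, with a median of 0.04 and 0 with the groups apart. The median was -0.01, with 3 of the 9 higher, without Msi2 KO 3, 0.25 in the high-Xist arrays and -0.29 in the low-Xist arrays. Ndufab1, an acyl carrier protein bound to the NFS1 complex, averaged 10.30 ± 0.24 in KO and 9.93 ± 0.16 in controls (SD, n = 4 each; 0.37, adjusted p 0.428). Gfer, a sulphydryl oxidase between the mitochondrial membranes, differed by 0.53 (95% interval -0.08 to 1.15). The cytosolic assembly genes had 9 of 11 measured, 7 higher and 2 lower, a median of 0.13 and 0 with the groups apart. That median was 0.05 without Msi2 KO 3, 0.30 in the high-Xist arrays and -0.115 in the low-Xist arrays. Nubp2, part of the cytosolic scaffold, differed by 0.43 (95% interval -0.14 to 1.00) and by 0.23 without Msi2 KO 3, and Ciao2b, part of the targeting complex, by 0.31 (95% interval -0.09 to 0.70).

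The mitochondrial proteins that carry clusters leaned higher in KO. 13 of 15 were measured, 12 higher and 1 lower, with a median of 0.33, or 0.21 without Msi2 KO 3. That median was 0.35 in the high-Xist arrays and 0.15 in the low-Xist arrays. The KO arrays lay above all controls for 2 of the 13 (3.63% of all genes), Ndufs7 and Ndufs8, both cluster-bearing subunits of respiratory complex I. Ndufs8 stood at 10.83, 11.13, 10.87 and 10.79 on Msi2 KO 1 to 4, against 10.60, 10.62, 10.47 and 10.35 on control 1 to 4. Its groups did not overlap, and its log2 difference was 0.39 (95% interval 0.09 to 0.69, adjusted p 0.363). Ndufs7 differed by 0.46 (95% interval 0.12 to 0.81, adjusted p 0.346). Its groups were barely apart, with the lowest KO array, Msi2 KO 1, at 10.956 and the highest control, control 1, at 10.955. Sdhb, the cluster-bearing subunit of complex II, averaged 10.18 ± 0.12 in KO and 9.91 ± 0.14 in controls (SD, n = 4 each). Lias, lipoic acid synthase and a client of NFU1 and BOLA3, differed by -0.01 (95% interval -0.71 to 0.70), and by -0.23 without Msi2 KO 3.

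The lipoylation genes make lipoic acid, attach it or encode the enzyme subunits that carry it, and Lias is one of them. All 9 were measured, 4 higher and 5 lower, with a median of -0.007 and 0 with the groups apart, and 0 were higher without Msi2 KO 3 (median -0.20). The median was 0.26 in the high-Xist arrays, -0.22 in the low-Xist arrays and 0.16 when Xist was a covariate. Dbt, a lipoylated subunit of branched-chain ketoacid dehydrogenase, averaged 8.03 ± 0.44 in KO and 8.64 ± 0.28 in controls (SD, n = 4 each; -0.61, adjusted p 0.397). Lipt2, the octanoyl transferase that acts before LIAS, differed by -0.65 (95% interval -1.76 to 0.46).

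Of the cytosolic and nuclear cluster proteins 15 of 20 were measured and 5 were listed at 0, with 12 higher, 3 lower and a median of 0.16. Without Msi2 KO 3, 10 were higher and the median was 0.07. Prim2, the cluster-bearing primase subunit, read 8.55, 8.63, 8.90 and 8.54 on Msi2 KO 1 to 4, against 8.32, 8.07, 8.14 and 8.19 on control 1 to 4. It was the 1 gene of this list with the groups apart, at a difference of 0.47 (adjusted p 0.293), beside 3.63% of all genes. Dph2, a diphthamide synthesis enzyme, was dim (5.15 in KO and 4.69 in controls) and differed by 0.45. Aco1, a cytosolic aconitase that becomes an iron sensor when it lacks its cluster, differed by 0.35 (95% interval -0.47 to 1.17), and by 0.14 without Msi2 KO 3.

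Genes of iron handling had 13 of 14 measured, 9 higher and 4 lower, with a median of 0.22, or -0.02 without Msi2 KO 3 and 0.45 in the high-Xist arrays. The groups were apart for 2 of the 13 with KO above (3.63% of all genes). These were Tfr2, the second transferrin receptor (0.68, 95% interval 0.13 to 1.22, adjusted p 0.378), and Pcbp1, an iron chaperone and RNA-binding protein (0.42, 95% interval 0.08 to 0.76, adjusted p 0.384). The gaps were narrow. For Tfr2 the lowest KO array, Msi2 KO 4, stood at 8.437 and the highest control, control 3, at 8.421. For Pcbp1 these were Msi2 KO 1 at 10.51 and control 1 at 10.47. Tfrc, the main transferrin receptor, differed by 0.13 and by -0.23 without Msi2 KO 3. The heme synthesis genes had 9 of 11 measured and Alas2, the erythroid first enzyme, at 0. Of the 9, 8 were higher and 1 lower, with a median of 0.59, or 0.335 without Msi2 KO 3, and 0 had the groups apart. The median was 0.333 when all probe sets of a gene were averaged, so it also depends on the probe sets read. With array weights, which keep the same probe sets, it was 0.374. Alad, the second enzyme of the pathway, averaged 9.57 ± 0.65 in KO and 8.59 ± 0.34 in controls (SD, n = 4 each), a log2 difference of 0.98 (adjusted p 0.338). Uros differed by 0.93 (adjusted p 0.399), and Fech, the cluster-bearing enzyme that inserts iron, by 0.59 (adjusted p 0.457). Without Msi2 KO 3 these 2 differences were 0.59 for Uros and 0.34 for Fech. Most of these genes are also expressed in erythroid cells, whose markers were higher in KO, and that part was not tested.

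**Figure D4:**
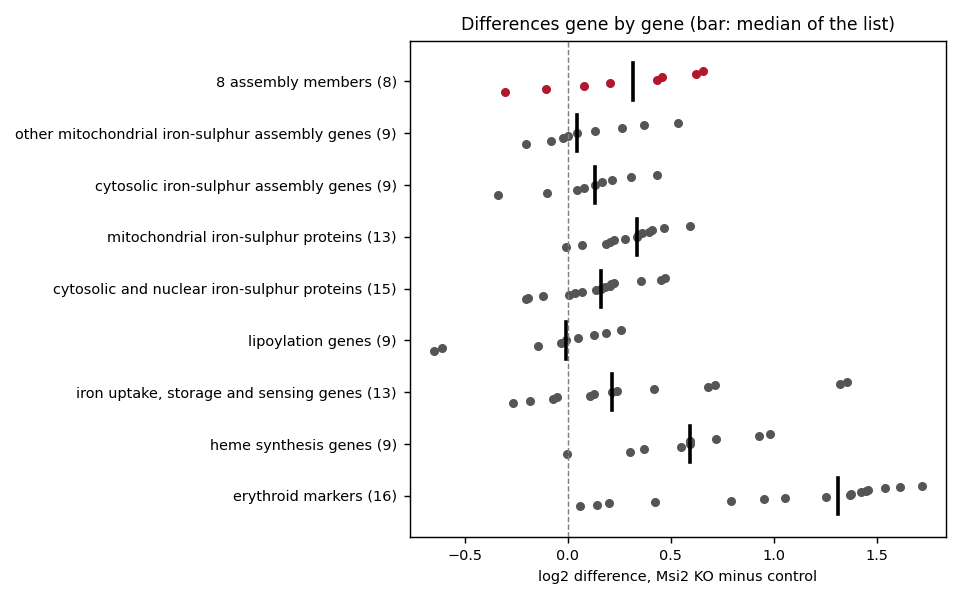
Log2 difference, Msi2 KO minus control, of each measured gene (points) by list (rows, with the number of genes), with the median as a bar. The 8 assembly members have a median of 0.32, the other mitochondrial assembly genes 0.04, the mitochondrial cluster proteins 0.33, the lipoylation genes -0.01 and the erythroid markers 1.31.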

How the data were processed

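The authors deposited 1 table of log2 signals per probe set for 8 arrays. Per the submitters' processing notes it was made with RMA, a method that corrects background, equalizes the arrays by quantiles and summarizes each probe set; no version is stated. Of 45101 probe sets, 20664 (45.8%) were exactly 0 on all arrays, by a step that is not stated, and were dropped together with 33 further AFFX controls. Values above 0 ran from 2.79 to 13.7, and array medians from 7.03 to 7.07. The number of arrays limits the precision.

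34958 probe sets carried 1 gene name (34754 updated through gene IDs in a RefSeq table of GRCm38.p6, used for names). Groups were compared with limma 3.58.1 in R 4.3.3 (lmFit, eBayes, two-sided, Benjamini-Hochberg) over all 24404 probe sets for the members, and over 10720 genes, each read by its brightest singly named probe set, for the lists. Intervals and adjusted p-values are limma's. Alternatives changed the normalization, the filter on dim probe sets, the variance prior, array weights, the replicate block, Xist level, shared probe sets and the arrays kept. In data simulated for Msi2 KO against control, 200 of 24404 probe sets were changed. The fit found 88 (44.0%) where the log2 change was 1, 167 (83.5%) where it was 2 and 193 (96.5%) where it was 3. The simulated noise was normal and independent between probe sets, with no array apart from the others as Msi2 KO 3 was. These shares may therefore not hold for the real arrays.

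The members, lists, motifs and tests were chosen with earlier results of these data known. Named are all members, in each list the 2 genes of smallest p, a few fixed genes, and the 3 genes most like Bola3 and Slc25a37. Mecom, Nfe2, Lyrm4 and Nubpl were named outside this rule. Some genes of the lists are not analysed here. Same-numbered KO and control arrays had deviations that correlated at -0.12 to 0.13, so the numbers were not taken as pairs.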

Additional observations from a re-analysis of the deposited data

Results flagged for a closer look

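6 of 70 groups of 4 arrays held 1 array far from the other 3, where chance gives about 1 in 20. Isca2 stood at 9.91 on Msi2 KO 3, with the other KO arrays at 9.50 to 9.53. Nfs1 1416373_at stood at 7.63 on control 4, with the others at 7.23 to 7.30. Glrx5 stood at 9.92 on control 2, with the others at 9.36 to 9.43. Among genes of the lists, Gfer stood at 8.50 on Msi2 KO 3 (others up to 9.22), Dph2 at 4.81 on Msi2 KO 4 (others 5.24 to 5.28) and Fech at 7.91 on control 1 (others 8.52 to 8.62).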

How the results depend on the processing

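With all arrays, 0 probe sets passed the adjusted threshold (2371 at an unadjusted p under 0.05). 1 passed after repeated quantile normalization, without dim probe sets, with array weights or without probe sets ending in _s_at or _x_at, and 2 passed with an intensity trend and robust prior. None of them belongs to a member. Leaving out 1 array gave 0 to 1. Of genes, 0 passed with all arrays (1222 at an unadjusted p under 0.05), 5 with Xist as a covariate, and 0 to 1 when 1 array was left out. With the replicate number as a block, 0 probe sets (2333 at an unadjusted p under 0.05) and 0 genes (1183) passed, and the check of the pairing gave r of 0.132, -0.121, 0.079 and -0.038 for numbers 1 to 4. The count of member probe sets with the groups apart was 3. It was 6 in the high-Xist arrays (30.3% of all probe sets were apart there in either direction, against 6.09% with all arrays), 11 in the low-Xist arrays (70.3%; chosen after seeing the data, with 1 control array) and 5 without Msi2 KO 3 (9.46%), within 3 to 5 when 1 array was left out. The differences of Bola3 1433970_at and both Isca1 probe sets lay between 0.46 and 0.87 over the alternatives. Of 213 differences of member probe sets under alternatives, 204 moved by less than 1 SD between replicates and 9 by more, all of these in arrays of like Xist level.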

Other observations

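Some genes of lipoic acid synthesis and cluster assembly outside the pattern of Bola3 shared a low value on 1 array. On Msi2 KO 2, Lias stood at 8.32 (9.30 to 9.95 on the other KO arrays and 9.04 to 9.58 on controls), Lyrm4, a subunit of the NFS1 complex, at 8.99 (9.49 or more elsewhere) and Nubpl, an assembly factor for complex I, at 8.46 (8.92 or more elsewhere). Nfu1 1418228_at was at 8.94 there, its lowest value. The brighter Nfu1 probe set, 1418229_s_at, went the other way, with its highest value, 10.12, on Msi2 KO 2. Lipt2, also of lipoic acid synthesis, stood at 6.90 there, the highest of the KO arrays. The genes with a low value were picked after their values were seen.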
